A study of Mus musculus with 9 samples.

Results

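The SLC25 family is the set of solute carriers of the inner mitochondrial membrane. Its members exchange ADP for ATP, take up phosphate, and move di- and tricarboxylates, amino acids, acylcarnitines, cofactors, nucleotides and iron between the cytosol and the matrix, and a few sit in the peroxisome or the outer mitochondrial membrane. The proximal tubule, which reabsorbs most of the filtrate and runs mainly on fatty acid oxidation, is among the tissues richest in mitochondria. The carriers are encoded in the nucleus, made in the cytosol and inserted through the TIM22 complex. Members were the rows of the count matrix whose mouse symbol was Slc25a followed by a number and that reached 10 counts in at least 3 libraries, which left 41 genes of 47 such rows, in a matrix of 56305 rows.

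The data are 9 RNA-seq libraries of mouse kidney tissue, 3 in each of 3 groups. The sham group came from wild-type littermates (labelled PFKFB3 WT) without injury. The injured wild-type group had the same genotype and was taken 14 days after ischemia-reperfusion injury (IRI), made by clamping both renal arteries for 30 minutes. The injured knockout group (labelled Pfkfb3ΔPTC) was taken 14 days after the same injury and lacked, in proximal tubular cells, Pfkfb3, which makes an activator of glycolysis. A knockout sham group is not analysed here, so no effect of the knockout in uninjured kidney is given. The driver of this conditional knockout and its deleted exons are not stated in the labels. Nothing in the labels ties libraries to different mice. A p-value here therefore sets a group difference only against the spread of these samples, and that spread may be technical.

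Pfkfb3 itself stood at 19.97, 20.1 and 21.9 CPM (counts scaled for library size with TMM) in the sham libraries, at 36.2, 34.4 and 25.2 CPM in injured wild-type and at 25.2, 19.7 and 17.3 CPM in injured knockout. It was lower in knockout than in wild-type after injury (log2 fold change -0.62, SE 0.17, adjusted p = 0.00773), and the injured knockout level was close to sham (0.01, adjusted p = 0.988). Which of its reads come from deleted exons or from cells outside the proximal tubule was not tested. Library totals ran from 15626792 to 19987842 counts, and TMM factors were 1.26 to 1.35 in injured wild-type against 0.850 to 0.905 in the other 6 libraries. Proximal tubule markers, 12 of 12 lower with injury and 12 of 12 higher in knockout than in wild-type after injury, summed to 22702 to 24228 CPM in sham, 3704 to 5529 CPM in wild-type after injury and 18476 to 19652 CPM in knockout after injury, and none was at 0. Markers of loop and distal tubule, 6 of 10 lower and then 8 of 10 higher, summed to 3646 to 4868, 1910 to 2996 and 3465 to 4633 CPM in the same order of groups. The part of either list in the results on carriers was not tested. B cell markers (4 of 4 higher, then 4 of 4 lower) and neutrophil markers (2 of 4 tested higher, then 4 of 4 lower) reached at most 14.2 and 36.3 CPM, both in injured wild-type. Endothelial markers summed to 266 to 337, 218 to 249 and 97.5 to 258 CPM, and podocyte markers to 344 to 540, 215 to 270 and 78.8 to 349 CPM. Brown fat and skeletal muscle markers stayed at or below 0.799 and 2.84 CPM.

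Promoter sequence is shown for 5 carriers whose close relatives moved unlike them: the calcium-regulated ATP-Mg/phosphate carriers, of which Slc25a24 moved against Slc25a25 and Slc25a23, and the ADP/ATP carriers Slc25a4 and Slc25a5. Each run gives 250 bases before and 50 after the outermost start in the RefSeq table of GRCm38.p6, 5′ to 3′ on the gene's strand, with CCAAT and the GC box GGGCGG in capitals on either strand. The windows are chr3:109122899-109123198 (+) for Slc25a24, chr2:32451421-32451720 (-) for Slc25a25, chr17:57059814-57060113 (-) for Slc25a23, chr8:46211013-46211312 (-) for Slc25a4 and chrX:36795347-36795646 (+) for Slc25a5.
Slc25a24: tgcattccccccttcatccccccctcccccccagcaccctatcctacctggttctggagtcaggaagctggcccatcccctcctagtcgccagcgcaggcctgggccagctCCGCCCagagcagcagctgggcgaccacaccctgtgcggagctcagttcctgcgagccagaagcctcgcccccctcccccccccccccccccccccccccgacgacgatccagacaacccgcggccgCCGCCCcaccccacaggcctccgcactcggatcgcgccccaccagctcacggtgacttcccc
Slc25a25: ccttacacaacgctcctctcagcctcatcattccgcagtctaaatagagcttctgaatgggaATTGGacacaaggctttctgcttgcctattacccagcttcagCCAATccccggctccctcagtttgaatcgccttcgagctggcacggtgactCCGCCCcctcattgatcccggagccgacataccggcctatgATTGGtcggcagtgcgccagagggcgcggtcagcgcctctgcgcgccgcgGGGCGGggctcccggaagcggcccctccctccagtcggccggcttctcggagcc
Slc25a23: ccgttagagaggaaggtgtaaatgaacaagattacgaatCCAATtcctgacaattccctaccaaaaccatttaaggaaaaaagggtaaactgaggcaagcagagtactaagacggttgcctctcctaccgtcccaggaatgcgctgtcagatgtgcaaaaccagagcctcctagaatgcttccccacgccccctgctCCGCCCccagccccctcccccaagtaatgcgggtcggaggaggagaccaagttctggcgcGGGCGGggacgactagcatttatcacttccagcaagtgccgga
Slc25a4: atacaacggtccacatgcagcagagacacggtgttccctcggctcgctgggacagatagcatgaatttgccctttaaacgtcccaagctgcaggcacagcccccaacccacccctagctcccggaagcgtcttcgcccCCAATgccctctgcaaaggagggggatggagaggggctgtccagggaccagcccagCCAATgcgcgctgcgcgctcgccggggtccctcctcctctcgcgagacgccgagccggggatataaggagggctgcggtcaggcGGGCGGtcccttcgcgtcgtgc
Slc25a5: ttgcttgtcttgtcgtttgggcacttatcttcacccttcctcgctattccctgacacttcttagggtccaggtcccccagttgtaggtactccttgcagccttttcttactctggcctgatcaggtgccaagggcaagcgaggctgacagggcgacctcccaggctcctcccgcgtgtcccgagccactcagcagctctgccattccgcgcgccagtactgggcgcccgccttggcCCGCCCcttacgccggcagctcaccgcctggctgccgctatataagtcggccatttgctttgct

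The Slc25a24 window held no CCAAT and 2 GC boxes, the Slc25a25 window 3 CCAAT and 2 GC boxes, and the Slc25a23 window 1 CCAAT and 2 GC boxes. The Slc25a4 window held 2 CCAAT and 1 GC box, and the Slc25a5 window no CCAAT and 1 GC box. RefSeq windows were matched for 33 of the 41 members and for 27025 genes in all, and a gene with several starts was counted if any window held the motif. These 27025 genes were not limited to those tested here, whereas the members had passed a count rule, so the 2 sets are unlike. A GC box was found in 29 of the 33 (87.9%) against 38.2% of all genes in the table, and CCAAT in 19 (57.6%) against 41.1%. The E-box CACGTG was found in 6 (18.2%) against 8.09%, and TATAAA in 1, Slc25a21 (3.03%), against 15.7%. The cyclic AMP element TGACGTCA was found in Slc25a25 and Slc25a36 (6.06%, against 2.03%), the AP-1 site TGANTCA in Slc25a11 and Slc25a13 (6.06%, against 8.97%), and the kB site in Slc25a1, Slc25a10 and Slc25a48 (9.09%, against 5.14%). The nuclear receptor element TCAAGGTCA, the direct repeat DR1 of AGGTCA and the NRF1 site GCATGCGC were found in none of the 33 members, against 0.466%, 0.0481% and 3.05% of all genes. All motifs were searched on both strands and as exact letters, and a match is a description of these letters only.

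In injured wild-type kidney most carriers were lower than in sham. Of the 41 members 28 fell, against 28.7% of all 15974 tested genes, and 3 rose, against 29.5% of all tested genes, by edgeR's quasi-likelihood test at a false discovery rate of 0.05. The median log2 fold change was -0.69 over the members and 0.03 over all tested genes. In either direction 31 members passed, against 58.2% of all tested genes. The members that rose were Slc25a24, Slc25a27 and Slc25a47, and 10 members did not pass the test. In bulk tissue, fewer cells of a type and less RNA per cell cannot be told apart. With library size alone in place of TMM, which moves the median of all genes from 0.03 to 0.57, 19 members fell and 9 rose, the members' median was -0.14, and 55.7% of all genes were called higher and 12.2% lower. Of the 28 that fell, Slc25a1, Slc25a11, Slc25a12, Slc25a22, Slc25a26, Slc25a28, Slc25a35, Slc25a38 and Slc25a46 were then no longer called.

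Between the injured groups, most carriers were higher in knockout than in wild-type. Of the 41 members 31 were higher, against 27.8% of all tested genes, and 1, Slc25a24, was lower, against 28.1% of all tested genes. In either direction 32 passed, against 55.9%. The median log2 fold change was 0.82 over the members and -0.01 over all tested genes. This comparison uses the same injured wild-type libraries as the comparison with sham, so the values of both are given side by side and their likeness is not counted as a result. With library size alone, which moves the median of all genes to -0.59, 18 members were higher and 8 lower, with a median of 0.24, and 11.6% of all genes were called higher and 57.0% lower. Among the calls then lost were those of Slc25a4, Slc25a12, Slc25a22, Slc25a26, Slc25a28, Slc25a29, Slc25a30, Slc25a35, Slc25a38, Slc25a44, Slc25a46 and Slc25a51. With injury, 30 members were lower and 4 higher in all 3 libraries than in any sham library, against 32.3% and 34.5% of all tested genes. Between the injured groups, 32 were higher and 3 lower without overlap, against 31.1% and 32.1%.

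Between injured knockout kidney and sham fewer carriers passed the test than in either comparison above. Relative to sham 2 members were higher, against 8.13% of all tested genes, and 5 were lower, against 9.48% (7 in either direction, against 17.6%, a share close to the background), with a median of 0.09 over the members and 0.01 over all tested genes. All knockout libraries lay above all sham libraries for 12 members, against 18.4% of all tested genes, and below them for 5, against 17.8%. The comparison shares its libraries with both comparisons above. The 2 higher were Slc25a4 and Slc25a11, and the 5 lower were Slc25a15, Slc25a16, Slc25a30, Slc25a44 and Slc25a51. These counts rest on single libraries: they were 0 and 0 without sham replicate 2, 1 and 0 without sham replicate 3, and 2 and 2 without knockout replicate 3. Read by their calls in order (injury, knockout against wild-type, knockout against sham), 22 members were lower, higher and not called, 5 were lower, higher and lower, and 7 passed in none of the comparisons. The share of all tested genes with each pattern was not counted, and the calls share libraries. These counts are therefore a description only, and no trait of the family is read from them.

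**Figure D1:**
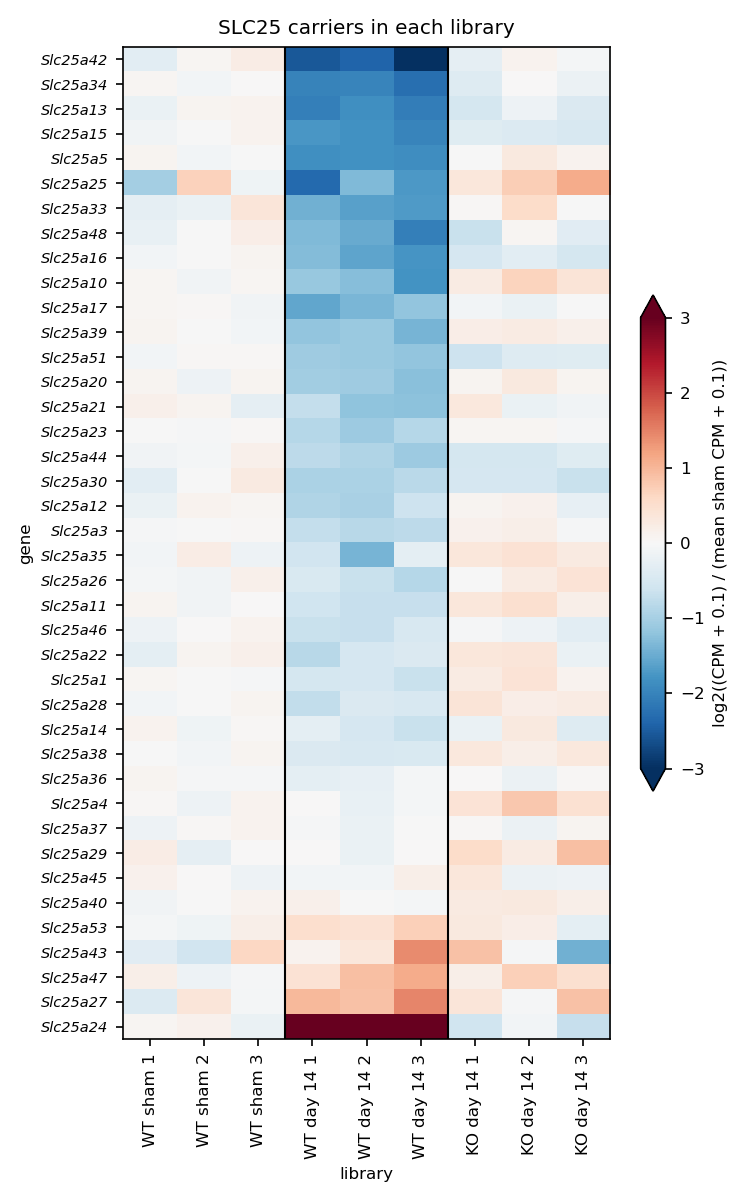
Heat map of 40 of the carriers (rows, ordered by log2 fold change with injury) in the 9 libraries (columns), as log2 of CPM plus 0.1 over the mean sham CPM plus 0.1, with colour saturating beyond the ends of the scale. The 3 injured wild-type columns are blue for most rows and red for Slc25a24 and the rows beside it, and the injured knockout columns are near sham for most rows.

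The family's share of the counts in a library, which amounts to scaling by library size alone, was also lowest in injured wild-type. As a sum it is weighted toward the most abundant members. Gene by gene, with library size alone, 19 members fell and 9 rose with injury, with a median of -0.14. The 41 members together made up 0.610 ± 0.0247% of all counts in sham (SD, n = 3), 0.421 ± 0.00920% in wild-type after injury and 0.648 ± 0.0340% in knockout after injury. Counts of the mitochondrial genome itself were 8.46 to 11.3% of counts in sham, 6.08 to 7.20% in wild-type after injury and 12.7 to 13.9% in knockout after injury, and their part in the result was not tested. Without those counts the family made up 0.673 ± 0.0158%, 0.450 ± 0.0111% and 0.746 ± 0.0362% of the counts left.

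Levels between genes are compared per kilobase (kb) of exon. In sham the order began with Slc25a5 at 715 CPM per kb, Slc25a39 at 348, Slc25a3 at 189, Slc25a10 at 156 and Slc25a4 at 107 CPM per kb, and ended with Slc25a47 at 0.433, Slc25a43 at 0.306 and Slc25a53 at 0.276 CPM per kb. The 4 carriers Slc25a3, Slc25a5, Slc25a10 and Slc25a39 held 63.8 ± 1.69% of the family's counts per kb in sham, 52.9 ± 1.58% in wild-type after injury and 65.1 ± 0.428% in knockout after injury. Slc25a24 went from place 36 of 41 in sham to 12 in wild-type after injury and 37 in knockout after injury, and Slc25a42 from place 13 to 27 and 12. The median sham level was 23.97 CPM per kb over the 28 members that fell, 5.18 over the 10 not called and 0.705 over the 3 that rose. Across the 41 members log2 of the sham level and the injury log2 fold change had a Pearson correlation of -0.63 and a Spearman correlation of -0.61, as a description, since the sham libraries enter both.

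Of the ADP/ATP carriers, which export ATP made in the matrix, the ubiquitous Slc25a5 (ANT2) fell with injury and Slc25a4 (ANT1), the form of heart and muscle, did not pass the test. Slc25a5 (ENSMUSG00000016319) stood at 1246, 1111 and 1175 CPM in sham, at 329, 334 and 324 CPM in injured wild-type and at 1164, 1440 and 1258 CPM in injured knockout. Its injured wild-type libraries lay below all others and the other groups overlapped, with a log2 fold change of -1.84 with injury (SE 0.11, adjusted p = 3.89e-07) and 1.97 in knockout against wild-type (SE 0.11, adjusted p = 3.43e-07). Slc25a4 stood at 257, 225 and 271 CPM in sham, at 252, 216 and 240 CPM in injured wild-type and at 335, 444 and 344 CPM in injured knockout. Sham and injured wild-type overlapped (-0.09, SE 0.13, adjusted p = 0.573, but 0.46 and called with library size alone), and injured knockout lay above both: 0.66 against injured wild-type (SE 0.13, adjusted p = 0.00102, not called with library size alone) and 0.57 against sham (SE 0.13, adjusted p = 0.0145, not called without sham replicate 2). Reads shared between these close paralogs and their pseudogenes could have been split between them by the counting. Within a library, Slc25a4 made up 12.98 ± 0.814% of the pair's counts per kb in sham, 33.4 ± 1.95% in wild-type after injury and 16.8 ± 0.838% in knockout after injury.

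The calcium-regulated ATP-Mg/phosphate carriers, which set the adenine nucleotide content of the matrix, split. Slc25a24 (SCaMC-1), at chr3:109123149-109168457 on GRCm38, stood at 5.62, 5.86 and 4.64 CPM in sham, at 51.5, 48.8 and 43.5 CPM in injured wild-type and at 3.504, 5.04 and 3.297 CPM in injured knockout. All 3 injured wild-type libraries were several-fold above all others, whose groups overlapped. It was 8.91-fold higher with injury (log2 3.15, SE 0.17, adjusted p = 2.11e-07), 12.2-fold lower in knockout than in wild-type after injury (log2 -3.60, SE 0.18, adjusted p = 2.39e-07), and at -0.45 ± 0.18 against sham in knockout (adjusted p = 0.112, but called without knockout replicate 2). Both calls held with library size alone (3.70 and -4.18). Macrophage markers moved the same way, 8 of 8 higher with injury and 8 of 8 lower in knockout, and summed to 134 to 181 CPM in sham, 1480 to 1686 CPM in wild-type after injury and 126 to 151 CPM in knockout after injury. Fibroblast markers summed to 98.9 to 171, 1466 to 1937 and 111 to 218 CPM (6 of 6 higher, then 6 of 6 lower), and T cell markers to 6.06 to 12.4, 37.6 to 55.2 and 8.13 to 9.41 CPM (6 of 6 higher, then 5 of 6 lower). No marker of these lists was at 0 in any group, and their part in the Slc25a24 result was not tested.

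Slc25a25 (SCaMC-2) stood at 102, 334 and 189 CPM in sham, at 41.5, 83.0 and 63.2 CPM in injured wild-type and at 263, 347 and 453 CPM in injured knockout. Sham libraries spread widely, and the injured wild-type libraries were below all of them. The log2 fold change was -1.74 with injury (SE 0.38, adjusted p = 0.00212) and 2.502 in knockout against wild-type (SE 0.39, adjusted p = 0.000206). Without sham replicate 2 the injury value was -1.21. Slc25a23 (SCaMC-3) was lower with injury (-0.93 ± 0.09) and higher in knockout (0.96 ± 0.09). Of the 3, Slc25a24 made up 3.55 ± 1.19% of counts per kb in sham, 44.0 ± 4.35% in wild-type after injury and 1.80 ± 0.511% in knockout after injury. Slc25a25 made up 53.5 ± 14.4%, 24.8 ± 7.16% and 68.1 ± 6.45%. The relatives Slc25a41 and Slc25a54, neighbours of Slc25a23 on chromosome 17 (2056 bases apart) and of Slc25a24 on chromosome 3 (6461 bases apart), were listed at 0 in all 9 libraries.

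**Figure D2:**
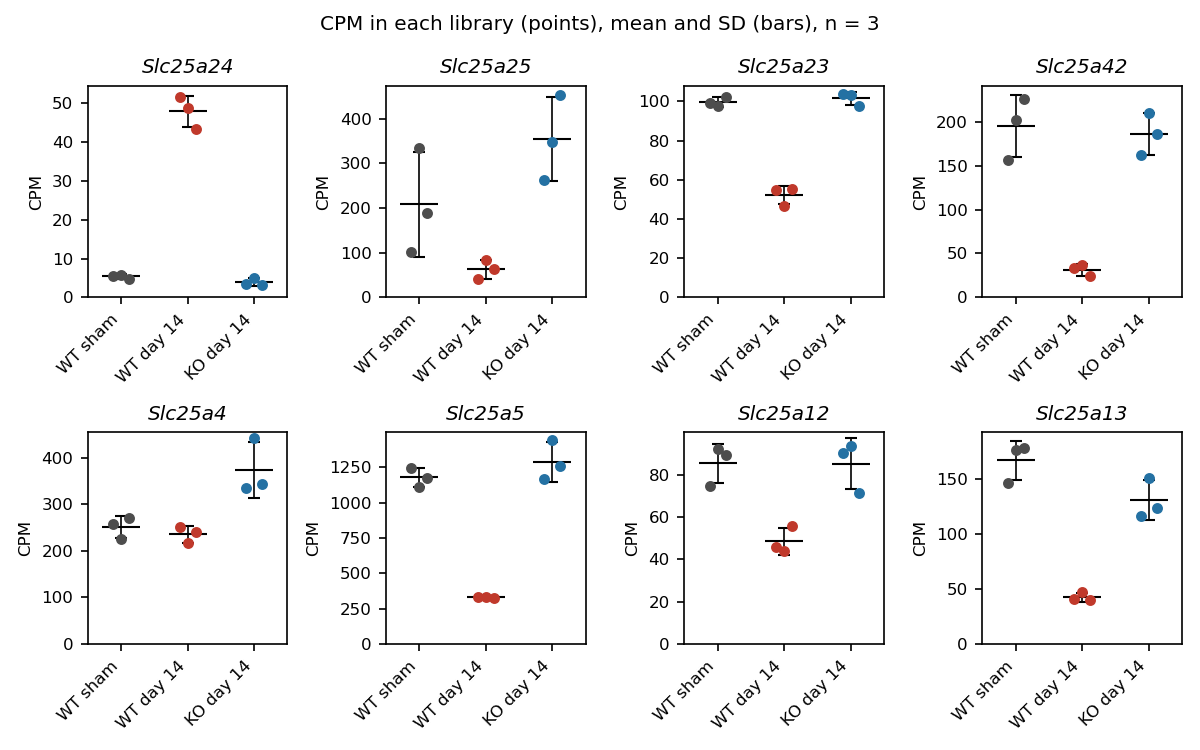
CPM in each library (points) with mean and SD (bars, n = 3) for 8 carriers in sham, injured wild-type and injured knockout. Slc25a24 is the panel in which the injured wild-type points stand highest. In the Slc25a4 panel the injured wild-type points overlap the sham points.

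Slc25a3, the main phosphate carrier and also a copper carrier, stood at 1021, 1050 and 1083 CPM in sham, at 639, 594 and 610 CPM in injured wild-type and at 1147, 1184 and 1034 CPM in injured knockout. Its injured wild-type libraries were the lowest and the other groups overlapped (log2 fold change ± SE of -0.77 ± 0.10 with injury and 0.87 ± 0.10 in knockout against wild-type, the form used below). Of the 3 carriers named for likeness to uncoupling proteins, 1 fell and 1 rose. Slc25a30 (KMCP1) stood at 168, 207 and 249 CPM in sham, at 107, 107 and 119 CPM in injured wild-type and at 148, 147 and 130 CPM in injured knockout. Injured knockout lay between, above injured wild-type (0.35 ± 0.13, adjusted p = 0.0434, lost with DESeq2 size factors and -0.23 with library size alone) and below sham (-0.56 ± 0.13, adjusted p = 0.0191), with a fall of -0.91 ± 0.14 with injury. The call against injured wild-type held in 4 of 9 fits that left out a library, and that against sham in 6 of 9. The former was also lost with a mean CPM of at least 1, without the 20 highest genes and with a replicate block. Slc25a27 (UCP4), known from brain, stood at 2.05, 3.60 and 2.68 CPM in sham, at 5.56, 5.19 and 7.83 CPM in injured wild-type and at 3.58, 2.71 and 5.15 CPM in injured knockout. It rose with injury (1.155, SE 0.30, adjusted p = 0.00566) and did not pass between the injured groups (-0.70 ± 0.29, adjusted p = 0.0625), whose libraries did not overlap, though it passed there with DESeq2, limma-voom and no low-count filter. Slc25a14 (UCP5) was at -0.49 ± 0.22 and 0.41 ± 0.22 and passed in neither, turning to 0.053 and -0.17 with library size alone.

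All 4 di- and tricarboxylate carriers fell with injury and were higher in knockout, by log2 fold changes of -1.37 to -0.57 and 0.82 to 1.82. Slc25a10, the dicarboxylate carrier that exchanges malate and succinate for phosphate, stood at 560, 500 and 560 CPM in sham, at 245, 224 and 157 CPM in injured wild-type and at 638, 864 and 707 CPM in injured knockout. Its 3 groups did not overlap (-1.37 ± 0.17 with injury, 1.82 ± 0.17 in knockout against wild-type), and knockout against sham was 0.45 ± 0.17 (adjusted p = 0.0818). Slc25a11, the oxoglutarate carrier of the malate-aspartate shuttle, stood at 192, 168 and 184 CPM in sham, at 120, 112 and 112 CPM in injured wild-type and at 231, 252 and 204 CPM in injured knockout. No groups overlapped (-0.66 ± 0.10 with injury, 0.9988 ± 0.10 in knockout against wild-type and 0.34 ± 0.10 against sham, the last with adjusted p = 0.0444 and not called in 6 of 9 fits that left out a library). The injury call of Slc25a11 was lost with library size alone. Slc25a1, the citrate carrier that feeds fatty acid synthesis, stood at 151, 146 and 141 CPM in sham, at 102, 102 and 91.8 CPM in injured wild-type and at 173, 192 and 157 CPM in injured knockout. Its injured wild-type libraries were the lowest (-0.57 ± 0.10 and 0.82 ± 0.10), although the injury call was lost with library size alone. Slc25a21, the oxodicarboxylate carrier, was at -1.04 ± 0.19 and 1.05 ± 0.19.

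Of 7 amino acid carriers 6 fell with injury and 7 were higher in knockout. The calls of Slc25a12, Slc25a22 and Slc25a38 were lost in both comparisons with library size alone. So were the knockout calls of Slc25a29 and Slc25a44. The aspartate/glutamate carriers Slc25a12 (aralar) and Slc25a13 (citrin) both belong to the malate-aspartate shuttle. Slc25a13 stood at 146, 176 and 178 CPM in sham, at 40.3, 46.8 and 39.5 CPM in injured wild-type and at 116, 151 and 124 CPM in injured knockout. Slc25a12 stood at 74.8, 92.0 and 89.1 CPM in sham, at 45.8, 43.7 and 55.8 CPM in injured wild-type and at 90.3, 93.7 and 71.4 CPM in injured knockout. Injured wild-type was lowest for both, with injury values of -1.98 ± 0.13 for Slc25a13 and -0.82 ± 0.14 for Slc25a12 and knockout values of 1.62 ± 0.13 and 0.81 ± 0.14. Slc25a12 made up 20.95 ± 0.372% of the pair's counts per kb in sham, 37.3 ± 4.83% in wild-type after injury and 25.3 ± 2.97% in knockout after injury.

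Slc25a15, the ornithine carrier of the urea cycle, stood at 202, 216 and 231 CPM in sham, at 64.5, 61.5 and 54.4 CPM in injured wild-type and at 169, 162 and 155 CPM in injured knockout. The 3 groups stood apart (-1.85 ± 0.10, 1.43 ± 0.10 and, against sham, -0.42 ± 0.10 with adjusted p = 0.0176). The call of Slc25a15 against sham held in 6 of 9 fits that left out a library. Slc25a22, a glutamate carrier, stood at 27.9, 36.3 and 38.1 CPM in sham, at 19.2, 24.02 and 25.3 CPM in injured wild-type and at 43.5, 43.7 and 29.9 CPM in injured knockout. Injured wild-type was lowest (-0.58 ± 0.17, adjusted p = 0.0143, lost in 3 of 9 fits that left out a library, and 0.77 ± 0.18). Slc25a44, a carrier of branched-chain amino acids, stood at 46.7, 48.0 and 56.0 CPM in sham, at 29.2, 26.9 and 23.5 CPM in injured wild-type and at 34.8, 34.8 and 38.7 CPM in injured knockout. Injured knockout lay between the other groups without overlap (-0.92 ± 0.11, 0.44 ± 0.12 but -0.13 with library size alone, and -0.47 ± 0.11 against sham). The call of Slc25a44 against sham held in 6 of 9 fits that left out a library. Slc25a38, the glycine carrier of heme synthesis, was at -0.46 ± 0.09 with injury, turning to 0.088 with library size alone, and at 0.73 ± 0.09 in knockout. Slc25a29, a carrier of basic amino acids, was at -0.05 ± 0.21, not called and 0.50 with library size alone, and at 0.65 ± 0.21 in knockout, a call lost without wild-type replicate 2 or knockout replicate 3 of the injured groups.

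Slc25a20, the carnitine/acylcarnitine exchanger that admits fatty acids for oxidation, stood at 105, 89.1 and 105 CPM in sham, at 48.0, 47.3 and 41.8 CPM in injured wild-type and at 105, 122 and 106 CPM in injured knockout. Injured wild-type was lowest by a wide margin, and the lowest knockout library lay just above the highest sham library (-1.12 ± 0.11 with injury, 1.28 ± 0.11 in knockout).

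Of 8 cofactor and nucleotide carriers 6 fell with injury and 7 were higher in knockout. Calls lost with library size alone included those of Slc25a26 in both comparisons and of Slc25a51 in knockout. Slc25a42, the coenzyme A carrier, had the largest fall with injury of the 41 members and stood at 157, 202 and 227 CPM in sham, at 33.6, 36.7 and 23.9 CPM in injured wild-type and at 163, 211 and 186 CPM in injured knockout. It was 6.22-fold lower with injury (log2 -2.64, SE 0.19, adjusted p = 7.41e-07) and 5.94-fold higher in knockout than in wild-type (log2 2.57, SE 0.19, adjusted p = 9.22e-07), and sham and knockout overlapped. Slc25a33, a pyrimidine nucleotide carrier, stood at 10.8, 11.3 and 16.8 CPM in sham, at 4.73, 4.13 and 3.91 CPM in injured wild-type and at 13.3, 19.0 and 12.8 CPM in injured knockout. Injured wild-type was lowest (-1.60 ± 0.22 and 1.82 ± 0.22). Slc25a16, whose substrate is less settled and which has been linked to coenzyme A, stood at 136, 143 and 151 CPM in sham, at 58.2, 47.9 and 42.1 CPM in injured wild-type and at 101, 115 and 98.8 CPM in injured knockout. No groups overlapped (-1.54 ± 0.12, 1.09 ± 0.12 and -0.45 ± 0.12 against sham, the last with adjusted p = 0.0284). The call of Slc25a16 against sham held in 5 of 9 fits that left out a library and was lost with a replicate block. Slc25a51, the NAD carrier, stood at 251, 275 and 275 CPM in sham, at 127, 123 and 117 CPM in injured wild-type and at 175, 203 and 207 CPM in injured knockout, again with no overlap (-1.13 ± 0.10, 0.67 ± 0.10 and -0.45 ± 0.10, the last with adjusted p = 0.0126). Its call against sham held in 7 of 9 fits that left out a library. Slc25a17, the peroxisomal cofactor carrier, was at -1.36 ± 0.11 and 1.26 ± 0.11, and Slc25a26, the S-adenosylmethionine carrier, at -0.66 ± 0.16 and 0.89 ± 0.16. Slc25a36, a pyrimidine nucleotide carrier, passed in neither (-0.20 ± 0.10 and 0.16 ± 0.10, turning to 0.35 and -0.42 with library size alone).

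Iron and glutathione carriers split within pairs. Slc25a39, a glutathione carrier, stood at 1018, 952 and 909 CPM in sham, at 424, 445 and 364 CPM in injured wild-type and at 1094, 1136 and 1070 CPM in injured knockout. The 3 groups did not overlap (-1.22 ± 0.11 with injury, 1.42 ± 0.11 in knockout), while its paralog Slc25a40 passed in neither (0.04 ± 0.13 and 0.22 ± 0.13, the latter -0.36 with library size alone). Slc25a37 (mitoferrin-1), which supplies iron for heme in red cell precursors, stood at 43.1, 48.7 and 50.8 CPM in sham, at 46.2, 41.5 and 47.3 CPM in injured wild-type and at 48.9, 42.4 and 50.5 CPM in injured knockout. All 3 groups overlapped (-0.08 ± 0.11, adjusted p = 0.543, and 0.07 ± 0.11, adjusted p = 0.592, turning to 0.47 and -0.51, both called, with library size alone). Slc25a28 (mitoferrin-2), the form of other tissues, was lower with injury (-0.54 ± 0.11, but 0.0068 with library size alone) and higher in knockout (0.82 ± 0.11). Neither call held with library size alone. Erythroid markers summed to 10.2 to 106, 20.2 to 79.4 and 9.34 to 34.3 CPM in the 3 groups, and their part was not tested.

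Among the 8 orphan or structural members 4 fell and 1 rose with injury, and 4 were higher in knockout. The calls of Slc25a35 and Slc25a46 were lost in both comparisons with library size alone. Slc25a34, whose substrate is not established, stood at 59.7, 54.1 and 57.7 CPM in sham, at 14.2, 14.5 and 11.9 CPM in injured wild-type and at 43.7, 58.0 and 50.9 CPM in injured knockout. Injured wild-type was lowest by far (-2.08 ± 0.13 and 1.91 ± 0.13). Slc25a47, a carrier known from liver, stood at 1.46, 1.162 and 1.25 CPM in sham, at 1.79, 2.49 and 2.92 CPM in injured wild-type and at 1.46, 2.18 and 1.85 CPM in injured knockout. It rose with injury (0.89, SE 0.30, adjusted p = 0.0247), a call lost in 4 of 9 fits that left out a library, and did not pass in knockout (-0.39 ± 0.30). It lies 162 bases from Slc25a29 on chromosome 12, on the opposite strand. Slc25a35 (-0.69 ± 0.23, lost in 2 of 9 fits that left out a library, and 1.05 ± 0.24), Slc25a46, an outer membrane protein that shapes mitochondria (-0.61 ± 0.11 and 0.45 ± 0.11, the latter -0.13 with library size alone), and Slc25a48, a choline carrier (-1.60 ± 0.22 and 1.31 ± 0.22), passed in both. Slc25a43 (0.85 ± 0.64 and -0.75 ± 0.66, but 0.27 and -0.16 without injured wild-type replicate 3, and -1.56 in knockout without knockout replicate 1), Slc25a45 (0.01 ± 0.15 and 0.01 ± 0.15, the latter -0.57 with library size alone) and Slc25a53 (0.58 ± 0.25 and -0.48 ± 0.26) passed in neither. With library size alone Slc25a45 and Slc25a53 passed in both comparisons, higher with injury and lower in knockout.

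**Figure D3:**
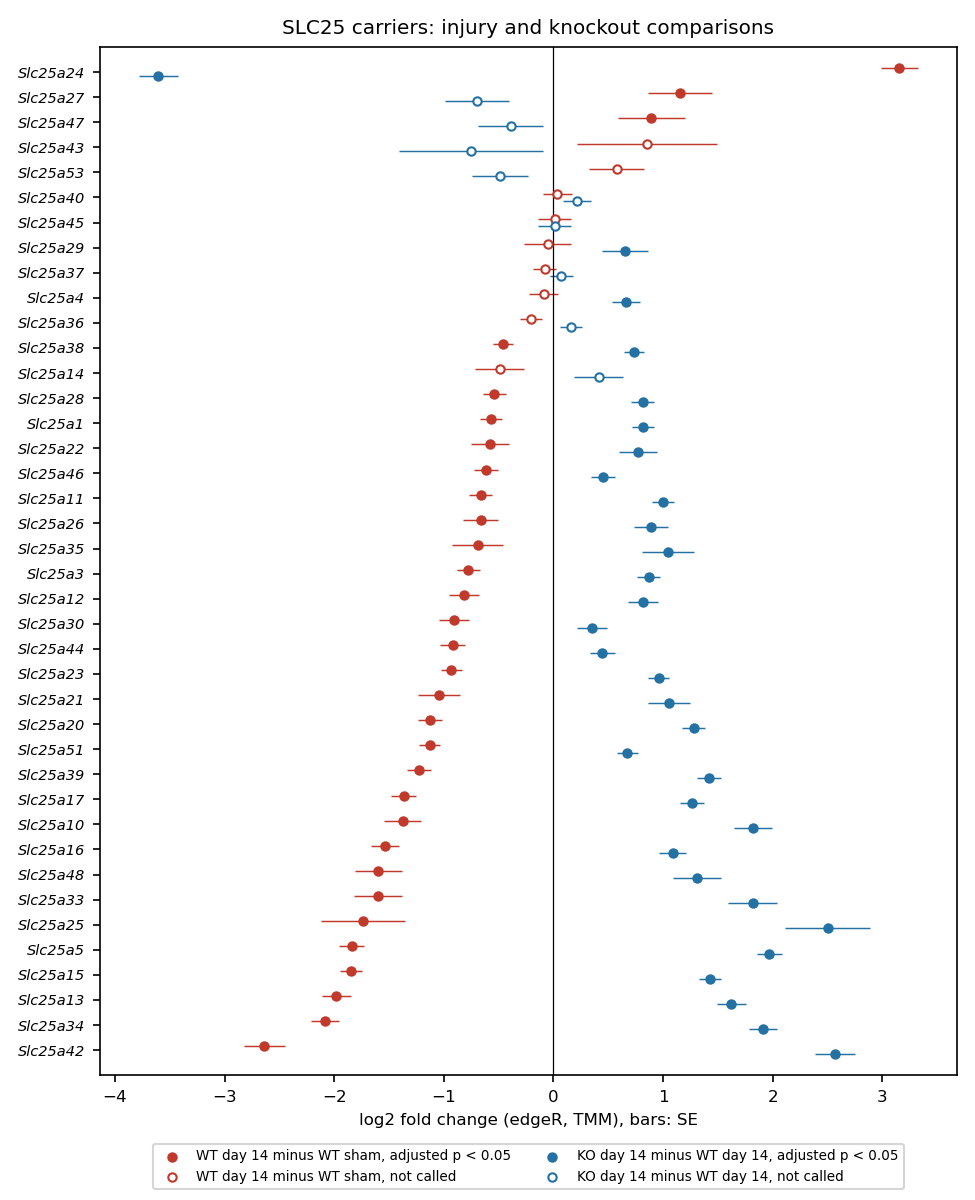
Log2 fold change with SE (bars) of 40 of the carriers with injury (red, injured wild-type minus sham) and between the injured groups (blue, knockout minus wild-type), with filled points for adjusted p under 0.05. The red points of 28 carriers lie left of 0 and are filled, and Slc25a24 is at 3.15 and -3.60; with library size alone in place of TMM, 19 of all 41 carriers fell and 9 rose with injury.

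**Figure D4:**
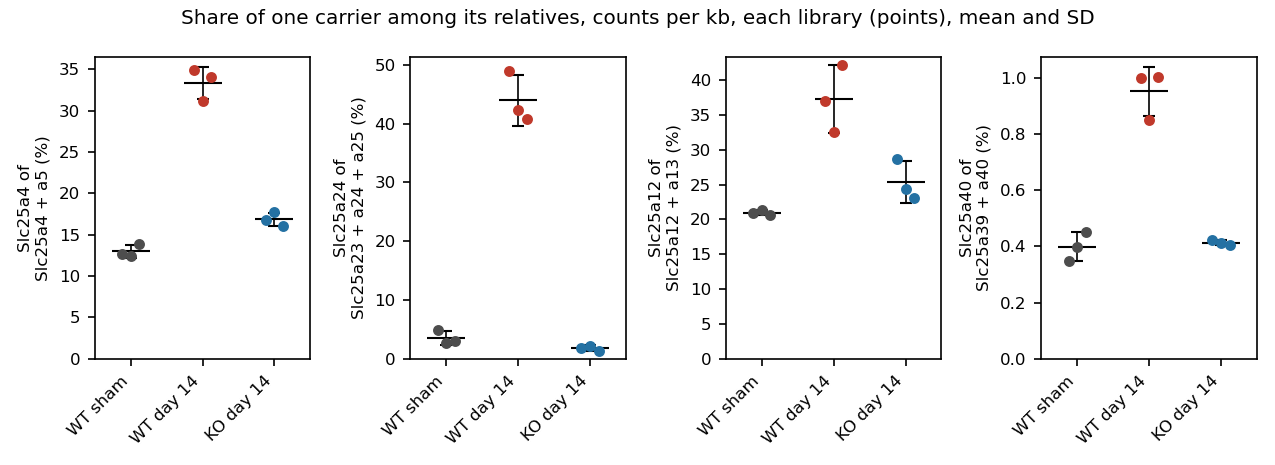
Share of 1 carrier among its closest relatives within each library, from counts per kb, so that no scaling between libraries enters (points are libraries, bars the mean and SD, n = 3). Slc25a4, Slc25a24, Slc25a12 and Slc25a40 each made up more of their set in every injured wild-type library than in any other.

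The 6 rows that did not reach the count rule were the carriers Slc25a2, Slc25a18, Slc25a31, Slc25a32, Slc25a41 and Slc25a54. The last 4 were listed at 0 in every library. By counting error alone a 0 allows up to 0.1501 to 0.192 CPM, but Atp5a1, an ATP synthase subunit that respiring cells use, was also listed at 0 throughout, so a listed 0 is not read as absence. Slc25a18, a glutamate carrier, reached at most 7 counts, and Slc25a2, an ornithine carrier, at most 16. For 11 members, Slc25a25, Slc25a23, Slc25a10 and Slc25a37 among them, exons overlap those of an opposite-strand gene, and as no use of strand is stated their reads cannot be told apart.

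Genes that work with the carriers are given from lists of partners. The list of mitochondrial protein import genes, which includes Timm23 and Timm50, was not limited to the TIM22 path of carriers. Of its 19 tested genes, 14 fell with injury and 17 were higher in knockout, with medians of -0.59 and 0.74. With library size alone 5 fell and 3 rose with injury (median -0.043), and 9 were higher and 2 lower in knockout (median 0.16). Tomm20, a receptor of the outer membrane, averaged 171 ± 10.4 CPM in sham, 104 ± 13.7 in wild-type after injury and 167 ± 7.81 in knockout after injury. All 6 malate-aspartate and glycerol phosphate shuttle enzymes fell and were higher in knockout (5 and 5 with library size alone), with medians of -1.41 and 1.33, and Mdh1, the cytosolic malate dehydrogenase, averaged 1490 ± 106, 562 ± 45.7 and 1509 ± 136 CPM. All 5 tested carnitine partners did the same, also with library size alone, with medians of -1.75 and 1.53 and with Cpt1a, the rate-limiting carnitine acyltransferase, at 596 ± 84.6, 186 ± 15.05 and 480 ± 28.3 CPM. Of 9 iron and heme partners 7 fell and 1, Ppox, rose with injury, a call lost in 7 of 9 fits that left out a library, and 9 were higher in knockout (6 and 8 with library size alone), with medians of -1.15 and 1.31.

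Of 8 tested adenylate partners 4 fell and 1 rose with injury, and 6 were higher and 1 lower in knockout, with medians of -0.71 and 1.08 (4 and 3, then 5 and 2, with library size alone). The one that rose and was then lower was Hk2, a hexokinase that binds the outer membrane, at 1.01 ± 0.224 CPM in sham, 18.2 ± 4.05 in wild-type after injury and 1.164 ± 0.498 in knockout after injury. Of 4 tested urea and ornithine partners 2 fell and 1 rose with injury, and 2 were higher and 2 lower in knockout, with medians of -0.48 and 0.58 (2 and 2 in each comparison with library size alone, where the medians turned to 0.069 and -0.0030). Ass1, argininosuccinate synthase, averaged 3691 ± 391.6, 702 ± 187 and 3502 ± 782 CPM. Of 19 tested carriers of other families 13 fell and 2 rose with injury, and 14 were higher and 2 lower in knockout (7 and 7, then 9 and 6, with library size alone), with medians of -0.52 and 0.49, which turned to 0.022 and -0.086 with library size alone. Slc8b1, the mitochondrial sodium/calcium exchanger, rose by 1.05 and was at -1.19 in knockout. Of 8 regulators of mitochondrial biogenesis 7 fell and 5 were higher in knockout (1 and 1 with library size alone, where 1 and 3 moved the other way), with medians of -0.63 and 0.61, and Ppara, the receptor that drives fatty acid oxidation genes, was at -2.98 with injury, at 1.35 in knockout against wild-type after injury (adjusted p = 0.0106; 0.78 and not called with library size alone) and at -1.63 in knockout against sham, the last a call lost without sham replicate 2 or sham replicate 3.

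Of the family's members with other symbols, 3 were tested. Ucp2, an uncoupling protein of immune and other cells, averaged 141 ± 6.14 CPM in sham, 359 ± 12.04 in wild-type after injury and 286 ± 101 in knockout after injury. It rose with injury (1.35, adjusted p = 0.000103), did not pass between the injured groups (-0.33, adjusted p = 0.156, but called at -0.65 without knockout replicate 2 and at -0.92 with library size alone) and was above sham in knockout (1.02, adjusted p = 0.00815). Mtch2, an outer membrane insertase, was at -0.79 and 0.45, and Mtch1 at -0.14, not called, and 0.31. With library size alone Mtch2 was at -0.25 and -0.13, neither called, and Mtch1 was called at 0.40 and -0.27, so that its direction turned in both comparisons and that of Mtch2 in knockout.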

How the data were processed

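The deposited values were raw counts per Ensembl gene in 9 whole-kidney libraries, not normalised by the authors as far as the file shows. The labels name a NEBNext Ultra kit and 500 ng of total RNA. The submitters' processing notes name the build mm10 and DESeq2 1.16.1 without a role. Aligner, counter, annotation and strand use: not given in the sources used here. Symbols came from GENCODE M21, which matched 55141 IDs and left 1164 unmatched, and 0 sample columns were unmapped.

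The quasi-likelihood test of edgeR 4.0.16 (R 4.3.3) was fitted to all 9 libraries with one term per group, TMM and filterByExpr, which kept 15974 genes. The 3 comparisons were 2-sided, p-values were adjusted by Benjamini-Hochberg over those genes with a threshold of 0.05, and the scripts were tested on simulated data. CPM use TMM library sizes. Standard errors are the log2 fold change over the root of F. The members, the partner and marker lists and the tests were chosen with earlier results of these data known. Values in every library are given for Pfkfb3, in each comparison for the 6 called members with the largest change in the prevailing direction and for those called in the opposite direction, and for a fixed panel of carriers of energy metabolism. The values of 1 member are not reported here, and it stays in the counts and medians. Partner genes named are drawn from those with the largest called change in each direction or from the most abundant 2 of their list.

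Alternatives were DESeq2 1.42.0, limma-voom (limma 3.58.1), DESeq2 size factors, library size alone, no filter on low counts, only genes with mean CPM of 1 or more, library sizes without the 20 highest genes, a fit to the groups compared, a replicate block, a false discovery rate of 0.01, and leaving out each library. Replicates of a group differed beyond sampling noise (chi-square per gene 12.3 to 29.4). The limit given for a count of 0 covers counting error only.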

Additional observations from a re-analysis of the deposited data

How the results depend on the processing

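Library size alone changed most: the members called with injury went from 3 higher to 9, and in knockout from 31 higher and 1 lower to 18 and 8. Among the carriers and partner genes with a fold change here, it reversed that with injury of Slc25a4 (0.46), Slc25a14 (0.053), Slc25a28 (0.0068), Slc25a29 (0.50), Slc25a36 (0.35), Slc25a37 (0.47) and Slc25a38 (0.088), with Mtch1 (0.40), and that in knockout of Slc25a14 (-0.17), Slc25a30 (-0.23), Slc25a36 (-0.42), Slc25a37 (-0.51), Slc25a40 (-0.36), Slc25a44 (-0.13), Slc25a45 (-0.57) and Slc25a46 (-0.13), with Mtch1 (-0.27), Mtch2 (-0.13) and Ppox (-0.17); the cause was not tested. The uncalled knockout value of Slc25a45 was also below 0 with DESeq2 size factors (-0.0075), a mean CPM of at least 1 (-0.0059), without the 20 highest genes (-0.030), with only 2 groups (-0.025), with DESeq2 (-0.0075) and with limma-voom (-0.0034).

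Members lower in knockout numbered 2 with no low-count filter, DESeq2 or limma-voom. Against sham, members higher in knockout numbered 1 with DESeq2 size factors and 4 with no low-count filter, and at a false discovery rate of 0.01 both counts were 0. Leaving out each library gave 2 to 3 higher and 26 to 29 lower with injury, 29 to 31 and 1 to 2 in knockout, and 0 to 3 and 0 to 6 against sham. Uncalled values crossed 0 for Slc25a29 (-0.16 to 0.064), Slc25a40 (-0.031 to 0.083) and Slc25a45 (-0.082 to 0.065) with injury and Slc25a45 (-0.17 to 0.11) in knockout.

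Same-numbered libraries did not deviate together (correlations of -0.119 to 0.063). With only 3 libraries in each group, these values cannot decide whether a shared number marks a shared origin or batch. With the replicate block, 3 members were higher and 28 lower with injury, 30 and 1 in knockout (Slc25a30 lost), and 2 and 4 against sham; the Slc25a45 knockout value was -0.0042. Depth limits the members of lowest count, Slc25a43, Slc25a47 and Slc25a53.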
